A study of Drosophila melanogaster with 6 samples.

Results

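The cytosolic ribosomal protein genes were followed in S2 cells, a Drosophila line of embryonic origin with haemocyte features, after transfection of a plasmid that expresses the clock transcription factor Clk. The members are the genes whose current symbol begins with RpL or RpS, or is sta, and that had a probe set with a single gene symbol. By this rule 41 of 11982 genes with such a probe set were members, read by 47 probe sets, and the brightest probe set by mean over the arrays stood for each gene. The RefSeq table lists 93 protein-coding genes that match the rule. The other 52, among them sta, RpS6, RpL4 and RpL5, have no single-symbol probe set in the annotation used and were not analysed here. Of the 41 members 25 carry a large subunit name (RpL) and 16 a small subunit name (RpS).

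The ribosome is built from a large subunit, which forms peptide bonds, and a small subunit, which decodes the mRNA, and each holds ribosomal RNA and many ribosomal proteins. A growing cell makes many ribosomes, and ribosomal protein genes are among its most strongly transcribed genes. In Drosophila, loss of a single copy of many of them gives the Minute phenotype of slow growth and short bristles. Some members have a near copy, a paralog, several of which are known from the fly germ line. A few genes carry a ribosomal protein name with the ending -like although their yeast relatives are assembly factors and not parts of the finished ribosome.

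Total RNA was measured on 6 Affymetrix arrays, taken 48 h after transfection. The control transfection (empty vector in the design text) had 2 arrays, 10 ng of pAc-Clk had 2, and 30 ng and 100 ng had 1 array each. The labels give no genotype beyond the cell line and leave it unsaid if replicate arrays came from different cultures, so the spread behind each p-value may be technical. The share of cells that took up the plasmid is not given, and a change in part of the cells cannot be told apart from a smaller change in all of them, nor fewer cells from less RNA per cell. Values are GCRMA values on a log2 scale that was inferred; taken at face value, the changes would all be 1.44 times larger.

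The Clk probe set read 2.50 and 2.84 in controls, 3.46 and 3.47 with 10 ng, 5.07 with 30 ng and 4.66 with 100 ng. All 10 haemocyte markers examined lay at 10.53 to 14.67, on every array above its brightest Tag probe set, a control with no fly transcript to match. Of 11 markers of neurons, germ line, fat body and muscle with a probe set, 5 lay above it on every array, and the brightest reading among all of them was 10.79. The arrays differed in RNA quality measures. The 5' minus 3' signal of 3 abundant control transcripts averaged -0.75 ± 0.0040 (SD, n = 2) for the control transfection and -0.94 ± 0.43 (SD, n = 2) for 10 ng, but read -9.40 at 30 ng and -8.25 at 100 ng. The middle minus 3' signal averaged -0.50 ± 0.081 and -0.51 ± 0.096 in these groups, and read -2.78 at 30 ng and -6.60 at 100 ng. The part of these signals in the results below was not tested, and with 1 array a dose they cannot be told apart from dose at 30 and 100 ng.

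In control cells the members fell into separate ranges. A set of 30 genes read between 13.56 (RpL34a) and 15.71 (RpL41) as the mean of both control arrays, close to the highest value on these arrays (15.69 and 15.72), which is the RpL41 probe set itself. The 2 control arrays differed little for these genes, with an SD of at most 0.079. The 3 genes RpL24-like, RpL7-like and RpLP0-like, whose yeast relatives Rlp24, Rlp7 and Mrt4 act in assembly of the large subunit, had control means of 13.19, 13.05 and 11.24. The other 8 were paralogs with control means of 2.65 (RpL10Aa) to 9.35 (RpS19b). The border between these sets was drawn after the values were seen.

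**Figure D1:**
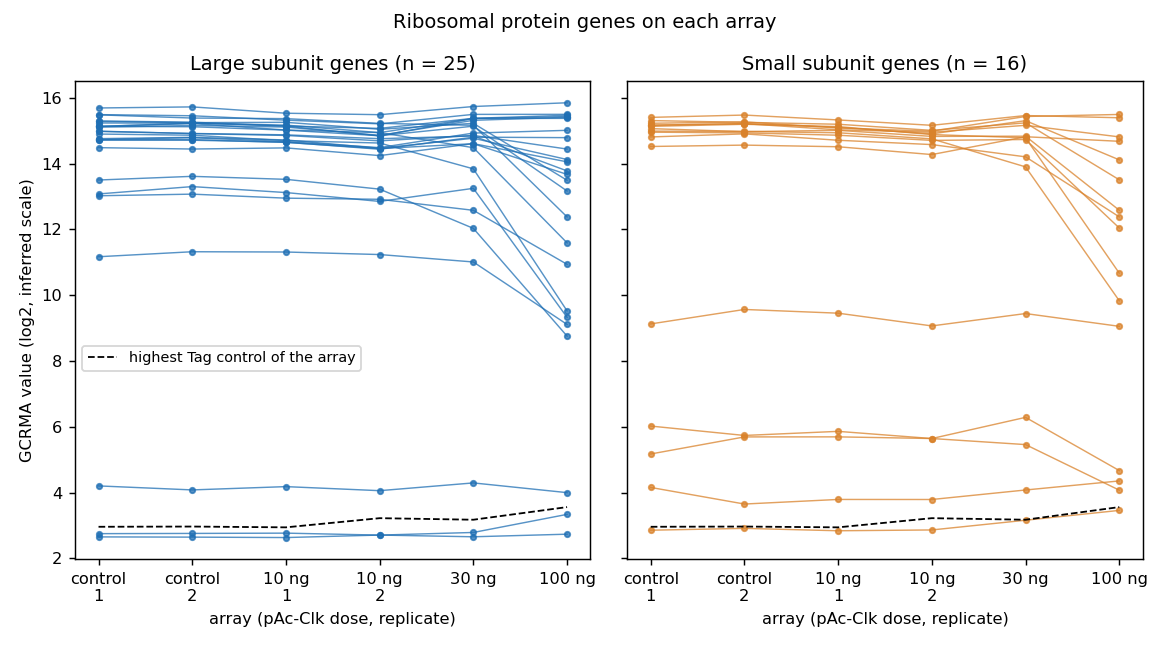
GCRMA value on the inferred log2 scale (vertical axis) of each of the 41 ribosomal protein genes on each of the 6 arrays (horizontal axis), with 25 large subunit names on the left and 16 small subunit names on the right; each line is a gene and the dashed line is the highest Tag control of the array. Most genes stay near 15 up to 30 ng, part of them drop on the 100 ng array, and a few paralogs lie near the dashed line throughout.

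Of the 41 members 38 had at least 2 arrays with a value of 4 or higher, the signal filter, and were tested. The 3 that did not pass were RpL10Aa, RpL22-like and RpS28-like. RpL10Aa, a paralog of RpL10Ab, read between 2.64 and 2.74 on the 6 arrays. RpL22-like, a paralog of RpL22 known for its expression in the fly testis, read 2.71 to 2.79 on the first 5 arrays and 3.34 at 100 ng. RpS28-like read 2.84 to 3.16 on the same 5 arrays and 3.46 at 100 ng. All 18 of these readings were under the highest Tag control of their array, which was 3.56 at 100 ng, so no fold is given for these genes.

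At 10 ng, the dose with replicates, 0 of the 38 tested genes passed in either direction (limma, Benjamini-Hochberg adjusted p, smallest 1.00), and 0 had an unadjusted p under 0.05. Over all 6610 genes tested, 0% were called lower and 0.0605% higher. The members' log2 changes lay between -0.22 (RpLP2) and 0.24 (RpS10a), with a median of -0.17, against -0.086 for all genes. On the second 10 ng array 35 of the 38 genes read lower than on both controls and the first 10 ng array, as did 57.4% of all genes. Both 10 ng arrays lay under both controls for 25 of the 38, against 22.9% of all genes. After quantile normalization, which gives every array the same distribution of values, the members' median was 0.0016 and that of all genes 0.0073. The cause of the small downward shift seen without it was not tested.

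At 30 ng most ribosomal protein genes read close to the controls: 5 of 38 were called lower (13.2%) and 0 higher, against 10.4% of all genes lower and 6.22% higher. Their median change was 0.016, and that of all genes 0.15. The 5 genes were RpL34a, RpS7, RpLP2, RpLP0 and RpS12, and all 5 were also called lower at 100 ng, a comparison that uses the same controls. RpL34a and RpLP2 were called lower at 30 ng in 16 of 16 processing settings, RpS7 in 15, RpLP0 in 12 and RpS12 in 11, with RpLP0 and RpS12 both lost when either control array was left out (adjusted p at most 0.188 and 0.217). RpL34a had the largest fall at 30 ng, with readings of 13.50 and 13.61 in controls, 13.52 and 13.22 at 10 ng, and 12.03. Its log2 change was -1.53 (SE 0.17, adjusted p = 0.000293). RpS12, which in Drosophila is needed for the recognition of Minute cells by their neighbours, changed by -0.65 (SE 0.16, adjusted p = 0.0231). The next change in size was that of RpL7-like (-0.47, adjusted p = 0.0599), which did not pass. At the other end RpS5b read 0.41 higher, RpS21 0.28, RpL29 0.19 and RpS28b 0.19, and none of these passed. Leaving out either control array gave fewer genes called lower at 30 ng. Quantile normalization gave 8 members lower and 3 higher, where 774 of 6614 genes were called lower and 926 higher.

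At 100 ng the ribosomal protein genes separated from each other. On that array 22 of the 38 tested genes were called lower (57.9%) and 0 higher, whereas 35.4% of all genes were called lower and 34.9% higher. The members' median log2 change was -1.06 against 0.051 for all genes, and 20 members had a change of -1 or lower, which 27.1% of all genes had. The spread among the members widened: the interquartile range of their values was between 0.64 and 0.75 on the 4 control and 10 ng arrays, 1.38 on the 30 ng array and 4.76 on the 100 ng array. The remaining 16 members lay between -0.41 and 0.45 and did not pass. After quantile normalization 20 were called lower and 7 higher at 100 ng, with a median of -0.49 against 0.25 for all genes. Of the 6614 genes tested under that scaling, 2169 were called lower and 2872 higher. These calls assume that the single array varies like the replicated groups, and on it the middle minus 3' control signal was -6.60.

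**Figure D2:**
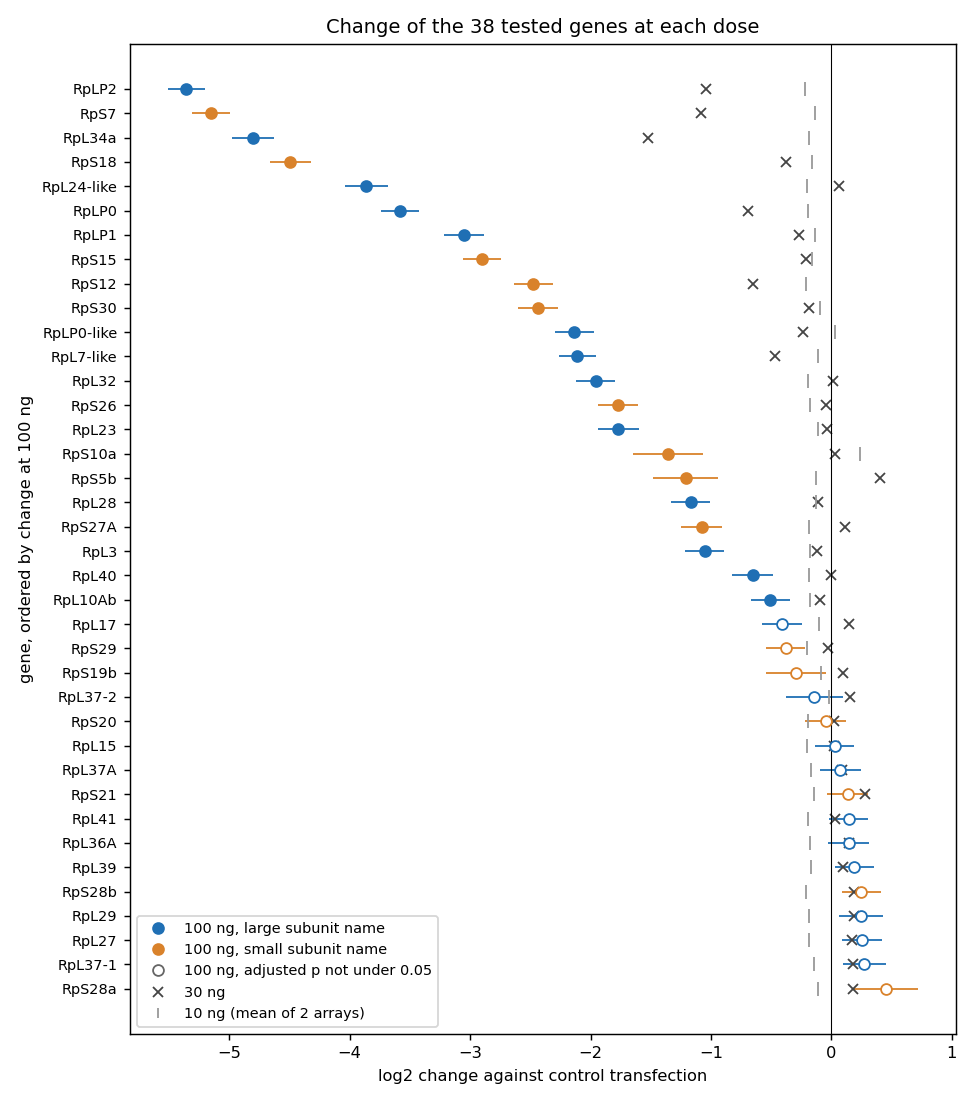
Log2 change against the control transfection (horizontal axis) of the 38 tested genes, ordered by their change at 100 ng; circles are 100 ng with the standard error as bars (blue for large and orange for small subunit names, open where the adjusted p was not under 0.05), crosses are 30 ng and ticks the mean of the 10 ng arrays. At 100 ng the genes run from -5.36 (RpLP2) to 0.45 (RpS28a), while the 10 ng marks lie between -0.22 and 0.24.

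The 3 stalk proteins of the large subunit were all called lower at 100 ng, against 57.9% of the tested members and 35.4% of all genes. RpLP0 anchors the stalk, and RpLP1 and RpLP2 form the dimers on it that recruit translation factors with GTPase activity. RpLP2 read 14.90 and 14.86 in controls, 14.70 and 14.62 with 10 ng, 13.84 with 30 ng and 9.52 with 100 ng. The last value lay far under the other 5, and the 30 ng array lay between, so that this gene had the largest change of all members at 100 ng, -5.36 (SE 0.15, 41.0-fold lower, adjusted p = 7.51e-09). RpLP0 read 15.13 and 15.21 in controls, 15.02 and 14.94 with 10 ng, 14.48 with 30 ng and 11.59 with 100 ng, a change of -0.69 at 30 ng (SE 0.16, adjusted p = 0.0172) and of -3.58 at 100 ng (SE 0.16, adjusted p = 6.68e-08). RpLP1 read 15.48 and 15.38, then 15.37 and 15.22, 15.16 and 12.38 in the same order, and its change at 100 ng was -3.05 (SE 0.17). For all 3 genes every Clk array lay below the lower control reading, which held for 34.2% of the tested members and 7.66% of all genes.

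Among the other large subunit proteins the changes at 100 ng ran from -4.80 to 0.27. RpL34a read 8.76 at 100 ng, a change of -4.80 (SE 0.17, 27.8-fold lower, adjusted p = 2.04e-08). Its probe set is of the kind that Affymetrix marks as matching several transcripts of a gene, and the paralog RpL34b was not analysed here. RpL32, better known as rp49 and often used as a reference transcript in fly work, read 15.13 and 15.12 in controls, 15.02 and 14.85 with 10 ng, 15.14 with 30 ng and 13.17 with 100 ng. It thus lay 3.88-fold lower on the 100 ng array (log2 change -1.96, SE 0.16, adjusted p = 4.23e-06) and differed from the controls by 0.012 at 30 ng. RpL23, which lies on the face that joins the small subunit, changed by -1.77 (SE 0.17), RpL28 by -1.17 (SE 0.16) and RpL3, which reaches towards the peptidyl transferase centre, by -1.05 (SE 0.16). RpL40, made as a fusion with ubiquitin, changed by -0.65 (adjusted p = 0.00663) and RpL10Ab, the protein of the L1 stalk, by -0.51 (adjusted p = 0.0199). After quantile normalization these last values were 0.056 and 0.087 and did not pass.

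A further group of large subunit genes did not pass at 100 ng. RpL41, the smallest protein of the set, read 15.69 and 15.72 in controls, 15.53 and 15.49 with 10 ng, 15.73 with 30 ng and 15.85 with 100 ng. RpL39, which lines the exit tunnel, read 15.30 and 15.26, then 15.14 and 15.07, 15.38 and 15.47. RpL15 had the smallest range over the 6 arrays among the tested members, 0.29, with a lowest reading of 15.21 and a highest of 15.50. These readings lie close to the highest of their arrays, 15.49 to 15.85, and how the arrays respond in that range was not tested. In these genes the 100 ng array was as high as or higher than the controls, and the 10 ng arrays were the lowest. The changes at 100 ng were 0.14 for RpL41, 0.19 for RpL39, 0.026 for RpL15, 0.075 for RpL37A, 0.14 for RpL36A, 0.25 for RpL27, 0.25 for RpL29 and 0.27 for RpL37-1, with standard errors of 0.16 to 0.18, and none passed (adjusted p from 0.192 to 0.900). RpL17 (-0.41, adjusted p = 0.0520) did not pass either, though it was called lower in 6 of the 16 settings. After quantile normalization 5 of these genes were called higher: RpL27 (0.56, adjusted p = 0.000387), RpL37A (0.47, adjusted p = 0.000798), RpL37-1 (0.35, adjusted p = 0.00644), RpL17 (0.33, adjusted p = 0.00817) and RpL29 (0.28, adjusted p = 0.0484). Among all 6614 genes tested under that scaling, 2872 were called higher.

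The changes of the small subunit genes ranged from -5.15 to 0.45 at 100 ng. RpS7 read 14.99 and 14.98 in controls, 14.94 and 14.75 with 10 ng, 13.90 with 30 ng and 9.83 with 100 ng. Its change was -1.08 at 30 ng (SE 0.16, adjusted p = 0.00152) and -5.15 at 100 ng (SE 0.16, 35.5-fold lower, adjusted p = 1.12e-08). RpS18, a protein of the head of the small subunit, read 15.13 and 15.19 in controls, 15.12 and 14.88 with 10 ng, 14.78 with 30 ng and 10.67 with 100 ng, so that it changed by -4.49 (SE 0.17) at 100 ng but by -0.38 (adjusted p = 0.143) at 30 ng. RpS15, also of the head, changed by -2.90 (SE 0.16) at 100 ng, RpS12 by -2.47 (SE 0.16), RpS30 by -2.43 (SE 0.17) and RpS26, which lies at the mRNA exit channel, by -1.77 (SE 0.17). RpS27A, which like RpL40 is made as a fusion with ubiquitin, changed by -1.08 (SE 0.17, adjusted p = 0.000283). In contrast RpS20 (-0.047), RpS21 (0.14), RpS28b (0.25) and RpS29 (-0.38, adjusted p = 0.0591) did not pass at 100 ng. Quantile normalization gave RpS21 (0.60) and RpS28b (0.22) as higher, and RpS29 was called lower in 8 of the 16 settings. RpS20 was among the 3 steadiest members, with readings of 15.16 to 15.47 on the 6 arrays.

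Set side by side, 13 of 23 large subunit genes and 9 of 15 small subunit genes were called lower at 100 ng, and 3 of 23 and 2 of 15 at 30 ng, where the shares of all genes were 35.4% and 10.4%. The 30 ng counts lie near that share. The median change at 100 ng was -0.65 for the large and -1.21 for the small subunit, against 0.051 for all genes. The ranges overlapped almost entirely, from -5.36 to 0.27 and from -5.15 to 0.45. Without the paralogs and the -like genes the medians were -0.51 over 19 large subunit genes, of which 10 were called lower, and -1.77 over 11 small subunit genes, of which 7 were. No test was made of the difference between subunits, because the members were chosen with earlier results known. Medians per array were 14.98 and 14.91 for the large and 14.99 and 14.97 for the small subunit in controls, and 13.78 and 12.38 at 100 ng.

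**Figure D3:**
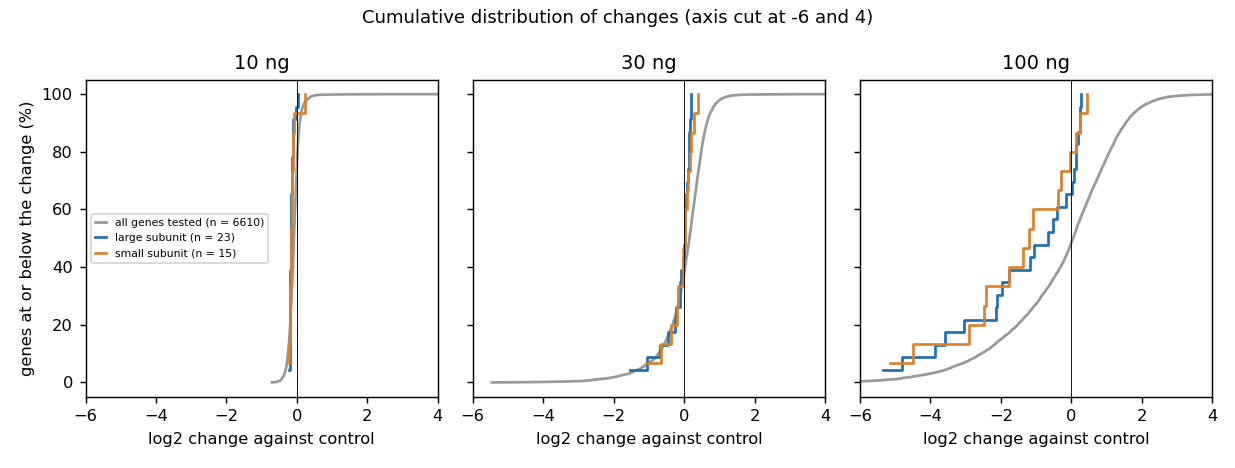
Cumulative share of genes (vertical axis, %) at or below a log2 change against control (horizontal axis, cut at -6 and 4) at 10, 30 and 100 ng, for the 6610 genes tested (grey), 23 large subunit genes (blue) and 15 small subunit genes (orange). The subunits run close together at 10 and 30 ng, and at 100 ng both lie to the left of all genes, with medians of -0.65 and -1.21 against 0.051.

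Of the 5 tested paralogs with low signal 2 were called lower at 100 ng, near the 35.4% of all genes. RpS19b, known from the germ line, read 9.13 and 9.57 in controls, 9.45 and 9.07 with 10 ng, 9.44 with 30 ng and 9.05 with 100 ng. The 100 ng reading was the lowest of the 6, and the change was -0.29 (SE 0.25, adjusted p = 0.325). RpS5b, a paralog of RpS5a known from the ovary, read 6.02 and 5.74, then 5.86 and 5.64, 6.29 and 4.67, and RpS10a, known from the germ line, 5.17 and 5.69, then 5.69 and 5.64, 5.46 and 4.08. Both were lowest at 100 ng, where they were called lower by -1.21 (SE 0.27, adjusted p = 0.00272) and -1.36 (SE 0.29, adjusted p = 0.00195). Their partners RpS5a, RpS10b and RpS19a were not analysed here. RpL37-2 read at most 4.30 on any array, whereas its partner RpL37-1 read between 14.86 and 15.41, and neither was called at any dose. Of the RpS28 genes RpS28b read between 14.98 and 15.49, RpS28a between 3.65 and 4.36, and RpS28-like under the highest Tag control throughout. RpS28a had the most positive change of the tested members at 100 ng, 0.45 (SE 0.27, adjusted p = 0.165), which did not pass.

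The 3 -like genes whose yeast relatives are assembly factors were all called lower at 100 ng, as were 57.9% of the tested members and 35.4% of all genes. RpL24-like read 13.08 and 13.30 in controls, 13.12 and 12.85 with 10 ng, 13.25 with 30 ng and 9.33 with 100 ng. It stood between the controls at 30 ng (0.059) and changed by -3.86 at 100 ng (SE 0.18, 14.5-fold lower, adjusted p = 8.05e-08). RpL7-like changed by -2.11 (SE 0.15) and RpLP0-like by -2.13 (SE 0.17) at 100 ng. RpLP0-like changed by -0.24 at 30 ng, which did not pass.

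Different probe sets of the same gene gave different changes. Of the 4 members with several single-symbol probe sets RpL3 had 3. Its brightest read 14.72 and 14.73 in controls, 14.64 and 14.46 with 10 ng, 14.60 with 30 ng and 13.67 with 100 ng. The second read 10.61 and 10.70 in controls, 9.71 and 10.60 with 10 ng, 3.28 with 30 ng and 3.14 with 100 ng. The second probe set thus read just above the highest Tag control at 30 ng (-7.37, SE 0.34, adjusted p = 1.80e-06), where the brightest changed by -0.12 (adjusted p = 0.636). At 100 ng it lay under the highest Tag control, so that its fall there is at least 137-fold (fit adjusted p = 7.11e-08), against 2.07-fold for the brightest. The third probe set changed by -2.64 at 30 ng (adjusted p = 0.00226) and by -2.60 at 100 ng (adjusted p = 0.000337).

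RpS7 was the member whose probe sets differed in sign at 100 ng. Its second probe set read 5.90 and 6.15 in controls, 5.89 and 6.05 with 10 ng, 6.44 with 30 ng and 6.50 with 100 ng, the highest of the 6, a change of 0.47 at 100 ng (SE 0.27, adjusted p = 0.140) that did not pass, against -5.15 for the brightest. RpS29 had a brightest probe set at -0.38 and a second, nearly as bright in controls (14.75 and 14.81), at -2.15 (SE 0.16, adjusted p = 2.11e-06). The third probe set of RpS29 read between 3.59 and 4.23 on the 6 arrays and changed by -0.14 at 100 ng. For RpS30 both probe sets were called lower at 100 ng, by -2.43 and by -4.15 (SE 0.26), and the second also at 30 ng (-1.17, adjusted p = 0.0159). The part of each transcript that a probe set reads is not given in the tables used here. Of the 41 representative probe sets 14 end in _s_at, which Affymetrix uses for probes shared by transcripts of different genes, so their readings are uncertain where near-identical copies exist. Of these 14 genes 8 were called lower at 100 ng, with a median of -1.11. Of the 20 tested genes read by a plain _at probe set 11 were, with a median of -0.87. Of the 4 genes read by an _a_at probe set, which matches several transcripts of a gene, 3 were, with a median of -1.70. Of all genes 35.4% were, with a median of 0.051.

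**Figure D4:**
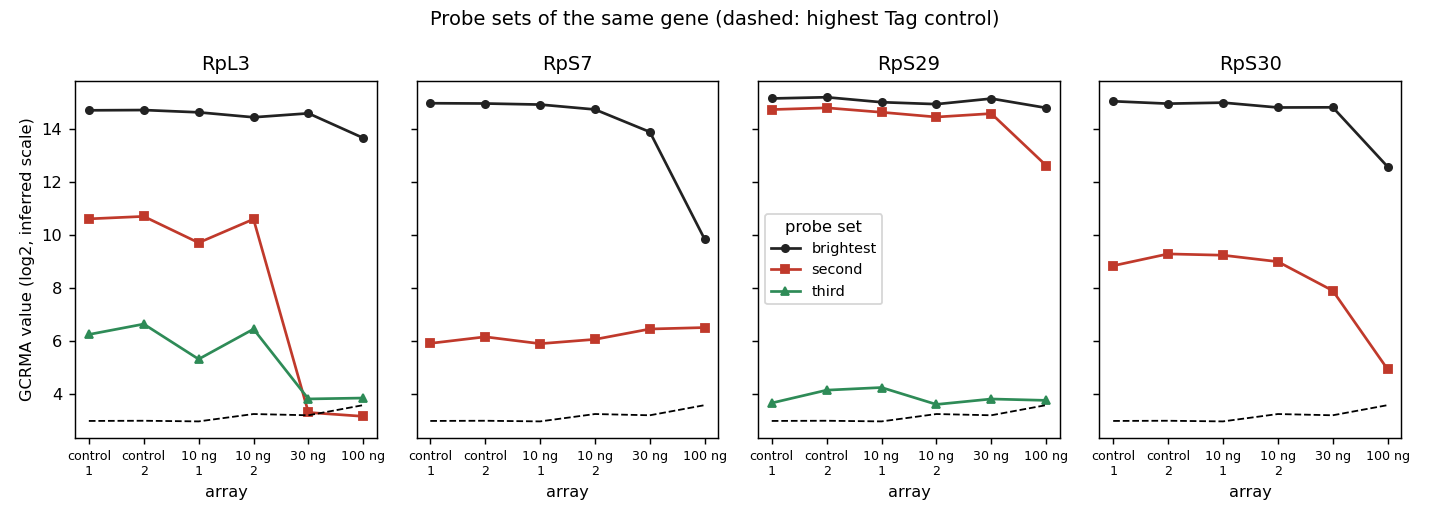
GCRMA value on the inferred log2 scale (vertical axis) on each of the 6 arrays (horizontal axis) for every single-symbol probe set of RpL3, RpS7, RpS29 and RpS30, ordered by brightness; the dashed line is the highest Tag control. The second RpL3 probe set drops from 10.60 on the second 10 ng array to 3.28 at 30 ng while the brightest stays at 14.60, and at 100 ng the brightest RpS7 probe set reads 9.83 against 14.99 and 14.98 in controls while the second is not lower than in controls.

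The 100 and 30 ng arrays were also set against each other. The differences use no control reading, but their standard errors and calls rest on the spread of the replicated groups, controls included. Relative to 30 ng 22 of 38 members were lower at 100 ng (57.9%) and 0 higher, against 32.6% and 22.7% of all genes. The largest differences were those of RpLP2 (-4.32, SE 0.18), RpS18 (-4.11), RpS7 (-4.07) and RpL24-like (-3.92). RpL36A and RpL15 differed by 0.00035 and 0.00069, the smallest differences among the members. Between these arrays the 5' minus 3' control signal differed as well (-9.40 at 30 ng, -8.25 at 100 ng), as did the middle minus 3' signal (-2.78 and -6.60). Among the 3' control probe sets themselves actin differed from controls by 0.14 at 30 ng and 0.19 at 100 ng, eIF-4a by -0.14 and -0.56, and GAPDH by -0.36 and -2.59.

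Over all doses together, with the 3 dose groups weighted equally, 18 of 38 members were called lower (47.4%) and 0 higher, against 26.9% and 23.0% of all genes. The largest changes were those of RpLP2 (-2.20), RpL34a (-2.17), RpS7 (-2.12), RpS18 (-1.68), RpLP0 (-1.49) and RpL24-like (-1.34). The most positive among the 38 were RpS28a (0.17), RpL37-1 (0.10), RpS21 (0.088) and RpL29 (0.083), none of which passed. After quantile normalization 17 were called lower and 5 higher, where 1659 of 6614 genes were called lower and 2367 higher. Without the 100 ng array 3 of 38 were called lower, where 357 of 6610 genes were. Without both single-array doses 0 members and 0 of 6610 genes were called lower. Read by order alone, 13 of the 38 genes (34.2%) had every Clk array below the lower control reading, against 7.66% of all genes. Every Clk array lay above the higher control reading for 0 members, against 1.88% of all genes. The lower order needs both 10 ng arrays under both controls, which held for 25 of the 38 and for 22.9% of all genes. The 13 were RpLP0, RpLP1, RpLP2, RpL3, RpL7-like, RpL10Ab, RpL28, RpS7, RpS12, RpS15, RpS18, RpS26 and RpS29.

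Genes that serve the ribosome from outside were counted in lists. Of 19 ribosome biogenesis genes tested, 12 were called lower and 4 higher at 100 ng, with a median of -1.13, and 5 and 2 at 30 ng. Of all genes 35.4% were called lower and 34.9% higher at 100 ng, with a median of 0.051, and 10.4% and 6.22% at 30 ng. Fib, the methyltransferase of ribosomal RNA, read 11.82 and 11.86 in controls, 10.58 at 30 ng and 8.25 at 100 ng, a change of -3.59 at 100 ng (adjusted p = 6.35e-08). eIF6, which keeps the subunits apart during assembly and binds RpL23, changed by -3.73, mbm by -3.72 and Non1, a nucleolar GTPase, by -2.74, and all 3 were called lower. Nnp-1 (1.07), RIOK1 (1.25), Ns2 (1.26) and vito (0.57) were the 4 called higher.

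Of 8 genes of RNA polymerase I and its factors, which make ribosomal RNA, 3 were called lower and 2 higher at 100 ng, with a median of -0.15, and 0 at 30 ng. Of all genes 35.4% and 34.9% were, so these counts do not set the list apart. The values were -1.26 for Polr1A, -1.07 for Polr1E, -0.60 for Tif-IA, 0.74 for Polr1H and 0.70 for udd, which passed, and -0.25 for Polr1F, which did not. Of 12 genes that control ribosomal protein synthesis or the Minute response, 4 were called lower and 5 higher at 100 ng, with a median of 0.084, against the same shares of all genes. Rack1, a protein of the small subunit that lacks an RpS name, read 14.59 and 14.70 in controls, 14.47 and 14.37 with 10 ng, 13.54 with 30 ng and 9.88 with 100 ng, a change of -4.77 at 100 ng (adjusted p = 1.36e-08). larp, whose relatives bind the mRNAs of ribosomal proteins, changed by -5.33, raptor, a part of the TOR complex, by -2.86, and M1BP, a promoter factor of many ribosomal protein genes, by -2.06. All 4 were called lower. The 5 called higher were gig (1.72) and Tsc1 (1.07), which form the complex that restrains TOR, REPTOR (1.28), a transcription factor held back by TOR, Dref (1.05) and Irbp18 (0.83), the partner of Xrp1. Tctp, whose mRNA is regulated like those of ribosomal proteins in mammals, read 14.57 and 14.56 in controls and 14.69 at 100 ng, and did not pass. S6k (-0.025) and pAbp (0.047) did not pass either. Tor, Thor, Myc, Rheb and Xrp1 were on the list but were not tested.

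The mitochondrial ribosomal protein genes, which serve a separate ribosome, were set beside them by the same counts. Of 69 tested, 46 were called lower and 4 higher at 100 ng, with a median of -1.30, where the cytosolic set had 22 of 38 and -1.06 and 35.4% of all genes were called lower and 34.9% higher. At 30 ng 7 were called lower and 3 higher, the first near the 10.4% of all genes. The difference between these families was not tested.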

How the data were processed

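The authors' processing gave the deposited intensities, a table of 18952 probe sets on 6 arrays; GCRMA is named per the submitters' processing notes, without version or settings. No column was without a sample (0 columns). The natural log of the intensities was read as the log2 GCRMA value: it spans 1.69 to 15.85, whereas log2 of the intensities reaches 22.86. The scale is inferred. The arrays' number limits precision. Probe sets were named by the platform annotation, with symbols updated by Entrez ID through RefSeq (release 6 assembly of the fly genome), and those with several symbols were left out of the gene set. After removal of 183 control probe sets, 8446 passed the filter (4 or more on at least 2 arrays) and stood for 6610 genes. A linear model with 1 coefficient per group was fitted with limma 3.58.1 (R 4.3.3), moderated with an intensity trend, and p-values were adjusted by Benjamini-Hochberg over all tested probe sets; under 0.05 was called. There were 2 residual and 7.60 prior degrees of freedom. Scripts were tested on simulated data. The highest Tag control of each array served as background.

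The members, gene lists, tests and alternatives were chosen with earlier results of these data known. Named were the 6 lowest and 4 highest changes at 30 ng, 100 ng and over all doses, all paralogs, untested members, members with discordant probe sets, the 3 steadiest and 3 widest-ranging members, members of special role, and from the other lists the 4 genes lowest in p over all doses; the other genes named were chosen after their values were seen. A likeness of profiles across arrays was not computed. Alternatives were log2 at face value, quantile normalization, median centring, no filter, a filter at 6, a pseudocount of 16, no trend, robust moderation, the mean of a gene's probe sets, a replicate block and leaving out each array. Figures were drawn with matplotlib 3.10.9.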

Additional observations from a re-analysis of the deposited data

Results flagged for a closer look

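The comparison of the 100 ng array with the 30 ng array tested the difference between these doses directly. In it 22 of 38 ribosomal protein genes were lower at 100 ng, against 32.6% of all genes. Each dose is a single array, and the middle minus 3' control signal was -2.78 at 30 ng and -6.60 at 100 ng.

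Probe sets that name a member beside another gene were outside the comparisons, and 2 of these 3 lay above the highest Tag control on every array. The probe set annotated to RpL28 and the snoRNA Or-CD12 had a mean of 7.88 over the 6 arrays and changed by -0.17 at 100 ng, where the single-symbol probe set of RpL28 changed by -1.17. The probe set annotated to RpL7-like and CG34164 had a mean of 6.23 and read 7.25 at 30 ng and 6.44 at 100 ng, against 5.93 and 6.11 in controls.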

How the results depend on the processing

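Under 16 settings including the main one, 20 of the 22 genes called lower at 100 ng were called lower in each setting that tested them, and the other 2 were RpL10Ab and RpL40. The number called lower at 100 ng was 20 to 25. It was 25 with median centring, where 2869 of 6633 genes were called lower and the median of all genes was -0.35. It was 20 after quantile normalization, where 2169 of 6614 genes were called lower. After quantile normalization 7 were called higher, where 2872 of 6614 genes were. At face value or with no filter 2 were called higher, RpL22-like and RpS28-like, which read under the highest Tag control on all 6 arrays. Of all genes 3103 of 9008 were called higher at face value and 4632 of 11982 with no filter. A member was also called higher without control replicate 1 and without either 10 ng replicate. At 10 ng 0 were called in each of the settings, with the replicate block as well. At 30 ng the 5 became 8 after quantile normalization (with 3 called higher) and 3 at face value or with no filter, which test more probe sets. In these last settings 338 of 9008 and 254 of 11982 genes were called lower at 30 ng. After quantile normalization 774 of 6614 genes were called lower at 30 ng and 926 higher. Leaving out 1 array gave 3 to 6 at 30 ng, 20 to 24 at 100 ng, 20 to 24 for 100 against 30 ng and 3 to 21 over all doses. Over all doses the 3 came without the 100 ng array, where 357 of 6610 genes were called lower. The 21 came without the 30 ng array, where 2020 of 6610 genes were. At 30 ng the share of all genes called lower moved too, and the members' counts stayed near it. Leaving out both single-array doses was an alternative chosen after seeing the data. It reduces the comparison over all doses to the 10 ng comparison, with 0 called, so it does not test the 18 called lower over all doses. With the replicate block the counts were 5, 21, 17 and 21 at 30 ng, 100 ng, over all doses and for 100 against 30 ng, so it changed no count by over 1.5 times. In the same order 697, 2292, 1725 and 2087 of 6610 genes were called lower with that block. Same-numbered control and 10 ng arrays deviated together (correlation 0.33 over probe sets), but 2 pairs do not settle a pairing. Quantile normalization turned the sign of RpL10Ab (0.087), RpL40 (0.056) and RpL17 (0.33) at 100 ng, of RpL17 (0.23) and RpL37A (0.25) over all doses, and of RpL17 (0.063) and RpL37A (0.23) for 100 against 30 ng; the cause was not tested. Under that scaling the members' median at 100 ng was -0.49 and that of all genes 0.25.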
